A study of Mus musculus with 4 samples.

Results

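The regions described here are the ATF4 peaks of gene deserts: peaks of the series-wide list, which the authors name an IDR (irreproducible discovery rate) list, on chromosomes 1 to 19 whose midpoint lay outside every protein-coding gene model and at least 100 kb from the nearest gene end. Of 40722 peaks on these chromosomes, and 41639 in the whole list, 3933 met the rule. It used position only, so fold, width and replicate support are measurements that it did not choose. The genes on either side are limited by it to those at a long gene-free interval, and grouping was counted among these peaks alone. Such a peak is called a desert peak below. Ventricles of 4-week-old mice gave 2 samples in which ATF4 was pulled down, titled ATF4-bio1 and ATF4-bio2 and called replicate 1 and replicate 2, and 2 input chromatin samples of the same tissue and age have values that are not analysed here. The pull-down used streptavidin beads, the antibody field of both samples reads AAV with no further word, and strain, genotype and promoter are not given, so endogenous and vector-derived ATF4 cannot be told apart. Whether separate mice were used is not stated, so each SD measures only the spread between these samples. The replicates' own lists held 78746 and 88812 peaks, and the read depth of each sample is unknown.

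ATF4 is a leucine zipper transcription factor that is translated when the integrated stress response is active, and it switches on genes for amino acid supply and redox balance. It binds DNA as a dimer with C/EBP proteins and other leucine zipper partners, at composite C/EBP-ATF elements and related sites. Gene deserts are long stretches without protein-coding genes, and in the heart and other organs some of them hold distal enhancers of the developmental genes at their edges.

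Where a desert peak covered the annotated start of a non-coding gene, the sequence under it could be read from the promoter windows of RefSeq (GRCm38.p6, the assembly of mm10), which run from 250 bases before a start to 50 bases after it. Of 2017 windows at non-coding starts in the deserts, 75 windows of 67 genes overlapped a desert peak, 3.72%, beside 24.2% of all 31396 windows with a peak of the series-wide list. All 67 genes are long non-coding RNA genes. The 7 windows below were chosen after their values were seen: windows under peaks named later, and windows with the elements searched for. Each runs 5′ to 3′ on the strand of its gene. Capitals mark AP-1 sites (TGACTCA), the core of the cAMP response element (TGACG), the C/EBP-ATF element (TGATGNAAT) and GATA sites (AGATAA), each searched on both strands. The Mir100hg window lies at an internal start of that gene.
Gm24474, plus strand, chr12:70649499-70649798: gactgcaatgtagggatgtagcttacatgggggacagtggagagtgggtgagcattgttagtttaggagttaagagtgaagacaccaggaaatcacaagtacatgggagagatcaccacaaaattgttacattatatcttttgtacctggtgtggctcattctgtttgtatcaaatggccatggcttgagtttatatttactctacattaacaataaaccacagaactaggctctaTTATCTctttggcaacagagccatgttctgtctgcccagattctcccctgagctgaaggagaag
4732465J04Rik, plus strand, chr10:95772883-95773182: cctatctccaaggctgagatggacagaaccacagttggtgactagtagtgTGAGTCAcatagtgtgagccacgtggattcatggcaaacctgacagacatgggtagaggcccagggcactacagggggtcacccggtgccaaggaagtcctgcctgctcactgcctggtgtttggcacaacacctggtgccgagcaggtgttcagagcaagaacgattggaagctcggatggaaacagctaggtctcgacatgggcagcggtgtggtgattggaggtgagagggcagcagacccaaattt
E130101E03Rik, plus strand, chr9:24973958-24974257: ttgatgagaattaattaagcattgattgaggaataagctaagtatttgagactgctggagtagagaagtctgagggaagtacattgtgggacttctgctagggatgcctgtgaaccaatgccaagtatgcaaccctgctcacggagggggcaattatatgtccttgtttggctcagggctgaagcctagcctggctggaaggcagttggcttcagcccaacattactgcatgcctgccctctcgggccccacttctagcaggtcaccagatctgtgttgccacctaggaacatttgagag
Gm31870, plus strand, chr1:193655266-193655565: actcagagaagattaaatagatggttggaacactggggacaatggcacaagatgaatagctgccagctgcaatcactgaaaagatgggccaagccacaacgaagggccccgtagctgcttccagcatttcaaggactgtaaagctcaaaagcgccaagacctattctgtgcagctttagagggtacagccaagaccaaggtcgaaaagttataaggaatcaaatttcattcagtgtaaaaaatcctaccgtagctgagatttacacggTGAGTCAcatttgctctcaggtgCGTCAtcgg
Gm36372, minus strand, chr12:16221236-16221535: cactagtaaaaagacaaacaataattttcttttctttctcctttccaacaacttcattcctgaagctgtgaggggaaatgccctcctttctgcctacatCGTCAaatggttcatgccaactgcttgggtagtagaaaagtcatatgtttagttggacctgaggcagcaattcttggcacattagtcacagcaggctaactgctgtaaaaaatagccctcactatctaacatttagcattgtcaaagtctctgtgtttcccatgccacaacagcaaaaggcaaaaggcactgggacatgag
Gm40287, plus strand, chr12:15606083-15606382: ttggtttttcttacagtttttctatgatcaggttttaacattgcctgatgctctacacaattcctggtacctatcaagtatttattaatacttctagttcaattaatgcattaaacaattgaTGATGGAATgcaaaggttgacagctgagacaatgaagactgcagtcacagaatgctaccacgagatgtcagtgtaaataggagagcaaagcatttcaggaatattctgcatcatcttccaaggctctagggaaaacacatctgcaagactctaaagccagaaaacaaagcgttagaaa
Mir100hg, plus strand, chr9:41474643-41474942: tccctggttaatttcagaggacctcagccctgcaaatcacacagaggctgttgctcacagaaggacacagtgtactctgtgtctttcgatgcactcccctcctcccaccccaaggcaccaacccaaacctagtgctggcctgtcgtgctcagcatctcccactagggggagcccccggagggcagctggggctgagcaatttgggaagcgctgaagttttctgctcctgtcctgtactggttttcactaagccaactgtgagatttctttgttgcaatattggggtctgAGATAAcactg

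The window of Gm31870, between Camk1g and Plxna2, held an AP-1 site at position 269 and a cAMP response core at position 292, counted from 1 at its 5′ end. The peak over it reached 26.5-fold in replicate 1 and 38.6-fold in replicate 2 (mean 32.5 ± 8.53, SD, n = 2). Its summit lay 251 bases before the gene start, just outside the window and at the end away from both sites. Gm40287, on the Trib2 side of its desert, had the one C/EBP-ATF element among the 75 windows, at position 123, under a peak of 8.5-fold and 7.98-fold (mean 8.24 ± 0.369, SD, n = 2). That is 1.33% of the 75 windows, beside 0.987% of all windows and 3.04% of desert windows without a peak. Across the 75 windows, 9 held an AP-1 site (12%, beside 5.26% of all 31396 windows), 21 a GATA site (28%, beside 11.1%), and 11 a cAMP response core (14.7%, beside 21%). None of the 75 held the full cAMP response element TGACGTCA, which contains the core and lay in 1.83% of all windows, and 1 held the MEF2 site (1.33%, beside 1.85%). Desert windows without a peak also held GATA sites more often than all windows, at 17.6%, and AP-1 sites at 5.97%. They held the cAMP response core at 11.4%, below the 14.7% under desert peaks, the full element at 0.515% and the MEF2 site at 2.63%. The 7591 windows with a series-wide peak, the 75 included, held AP-1 sites at 3.57% and GATA sites at 7.27%. The cAMP response core lay in 36.1% of them, the full element in 3.93%, the C/EBP-ATF element in 0.593% and the MEF2 site in 1.69%. These are matches of letters in windows placed by gene starts. The 75 windows lay under 68 peaks and some overlap each other, so their counts are not independent. A peak could also cover only part of its window. Of the 75 windows, 44 held the peak's summit. Besides that of Gm31870, the printed windows of Gm24474, 4732465J04Rik and E130101E03Rik did not. Their summits lay 147, 403 and 355 bases past the gene start.

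Desert peaks were sparse, and became sparser with distance. Sequence at least 100 kb from a gene made up 680 Mb, 28% of the span between the first and last gene model of each chromosome, and held 9.66% of the peaks. Its density was 5.75 peaks per Mb, against 21 per Mb elsewhere, a ratio of 0.274. The same ratio was 0.297 in the list of replicate 1 and 0.286 in that of replicate 2 (mean 0.291 ± 0.00802, SD, n = 2), and it was below 1 on 19 of 19 chromosomes in all 3 lists, from 0.170 to 0.484 in the series-wide list. Density fell from 35.5 per Mb within 5 kb of a gene to 8.81 at 100 to 200 kb, 5.77 at 200 to 500 kb, 3.29 at 500 to 1000 kb and 1.997 beyond 1000 kb. The median desert peak lay 219 kb from a gene (quartiles 145 and 370 kb), and the farthest 2153 kb. Peaks on either side of the 100 kb line were alike in level: the median fold was 14.2 for the 150 peaks at 95 to 100 kb and 14 for the 144 at 100 to 105 kb. The nearest pair to it were a peak 99.99 kb from Foxp2, at 11.5-fold, and one 100.08 kb from Irx3, at 12-fold.

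That fall with distance was not shared by all widths. The desert peaks held 434 that were under 200 bp wide in both replicates' own lists, and this narrow class, described after its values were seen, did not fall with distance: its density was 0.612 per Mb inside genes, 0.453 at 50 to 100 kb, 0.598 at 100 to 200 kb, 0.554 at 200 to 500 kb, 0.727 at 500 to 1000 kb and 0.830 beyond 1000 kb. Over the same classes the other peaks in both lists fell from 22.3 per Mb inside genes to 7.98, 5.15, 2.51 and 1.07. Narrow peaks were therefore 2.67% of the peaks inside genes that both replicates held, 11.3% of those in deserts and 43.7% of those beyond 1000 kb. By other definitions of narrow the density was less level. By series-wide width, peaks under 200 bp fell from 1.10 per Mb inside genes to 0.704 at 50 to 100 kb. They fell no further overall in the desert classes, with 0.857, 0.698, 0.824 and 0.872 per Mb in order of distance. In each replicate's own list, peaks under 200 bp fell from 10.03 per Mb inside genes to 3.84 beyond 1000 kb in replicate 1, and from 12.5 to 2.52 in replicate 2. Their share rose with distance in those lists too, to 70.5% and 57.2% beyond 1000 kb (mean 63.9% ± 9.44, SD, n = 2), against 22.5% and 24.98% inside genes (mean 23.8% ± 1.73, SD, n = 2). The width is that of the authors' peak call, and the genome sequence at these positions was not used here.

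**Figure D1:**
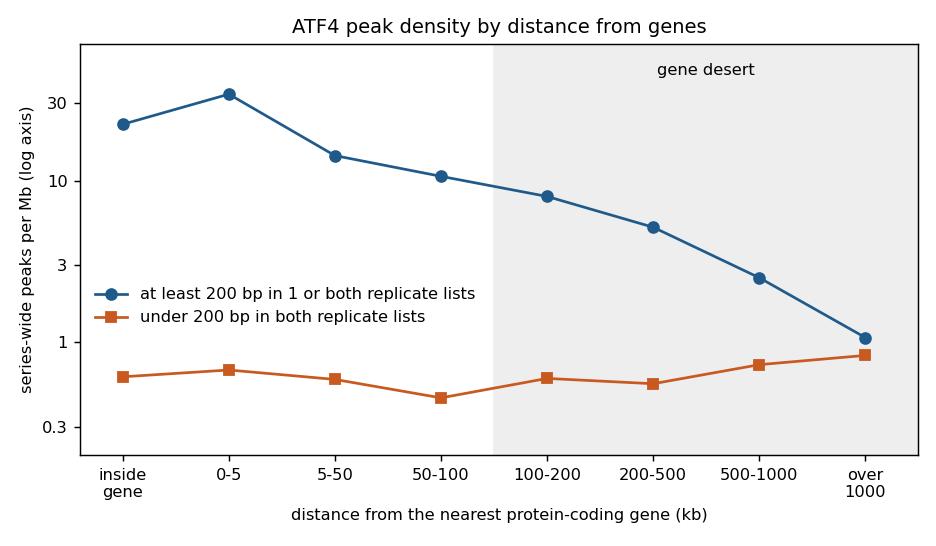
Series-wide peaks per Mb (log axis) by distance from the nearest protein-coding gene in kb, for peaks found in both replicate lists. The class at least 200 bp wide in one or both lists fell from 22.3 per Mb inside genes to 1.07 beyond 1000 kb, while the class under 200 bp in both lists lay between 0.453 and 0.830 per Mb in all 8 distance classes.

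The narrow desert peaks also differed between the replicates in one direction. Their median fold was 13 in replicate 1 and 9.75 in replicate 2, and replicate 1 was higher at 383 of 434 (88.2%), with a median ratio of 1.36. At the 3414 other desert peaks in both lists replicate 1 was higher at 40.4%, with a median ratio of 0.940. Replicate 1 was higher at most narrow desert peaks on 19 of 19 chromosomes, from 76% to all of them on a chromosome. Narrow peaks under 100 kb from a gene showed the same direction at a smaller size, with replicate 1 higher at 67.1% and a median ratio of 1.13. At 50 to 100 kb the values were 75.9% and 1.29, close to 1.34 at 100 to 200 kb. The summits of the 2 replicates lay a median of 3 bp apart at narrow desert peaks and 20 bp apart at the others. Of the narrow ones 397 stood alone (91.5%), with no other desert peak within 10 kb, against 60.8% of the others, and none exceeded 23.5-fold. With 1 group of 2 samples there is no test of these differences.

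**Figure D2:**
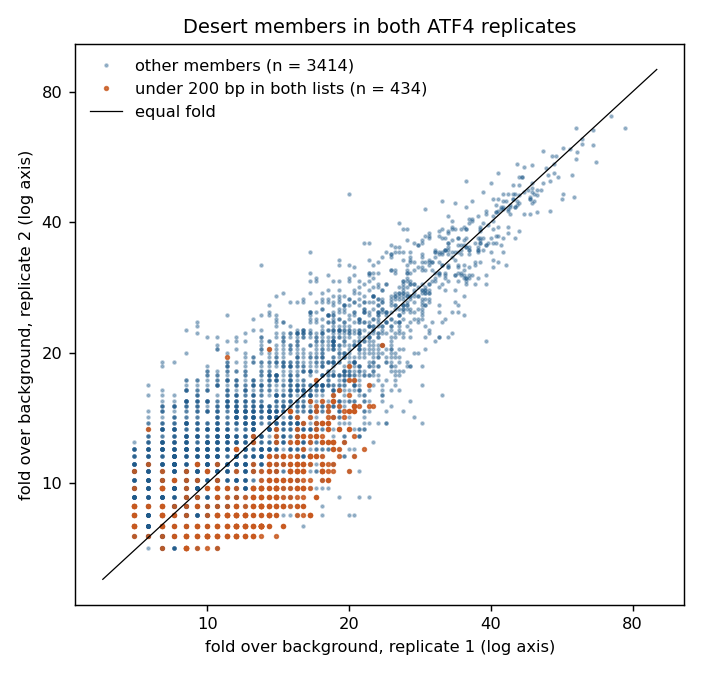
Fold over background of each desert peak found in both lists, with replicate 1 on the horizontal axis and replicate 2 on the vertical (both log axes), and the line of equal fold. The 434 narrow peaks lie mostly below the line, and the 3414 others on both sides of it up to 77-fold.

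Replicate 1 and replicate 2 both held most desert peaks. A peak overlapping by at least 1 bp was present in both lists for 3848 of 3933 (97.8%, exact 95% interval 97.3 to 98.3, which covers counting error only), beside 98% of all series-wide peaks on these chromosomes. An IDR list keeps peaks that recur between replicates, so this share is largely set by how the list was made. With a reciprocal overlap of 50% it was 92.25%. Folds of the replicates were within 1.5 times of each other at 86.2% of the shared desert peaks, and over 2 times apart at 25 of them. In the other direction, 76.8% of the 7997 desert peaks of replicate 1 had a partner in replicate 2, beside 81.9% of its other peaks, and 70.2% of the 8726 of replicate 2 had one in replicate 1, beside 72.4%. The remaining 85 desert peaks were in neither list. Of these, 69 lay past the last peak of either replicate list on 6 chromosomes, 13, 14, 16, 17, 18 and 19, where those lists stop before the series-wide list does. The other 16 were strong, with a median of 56.4-fold and a range of 19 to 78. The names of both replicate lists carry the word blacklist, which the name of the series-wide list does not. Whether such a filter removed these 16 from the replicate lists was not tested, so they may not be sites of ATF4. The strongest was chr9:2999952-3038351, 78-fold and 38400 bp wide, which is also the widest desert peak and lies 316 kb from Alkbh8, the first gene model of its chromosome. The next widest, chr17:39842953-39848881 between Esp15 and Esp38 at 67.4-fold and chr14:19415658-19419745 between Gm41099 and Gm2244 at 75-fold, were in neither list as well. Of the 10 desert peaks of highest fold, 6 were in neither list.

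In level, desert peaks were close to the rest. The median fold, over a constant background and not a ratio to input, and taken as the higher of the replicates' values, was 14.5 (quartiles 11.1 and 20.4), against 13.7 for peaks under 100 kb, and 8.92% reached 30-fold, against 8.75%. They were narrower, with a median of 382 bp against 453 bp, and 4.47% were 1000 bp or wider, against 8.63%. In the replicates' own lists the median width was 249 bp and 260 bp for desert peaks (mean 254 ± 7.78, SD, n = 2) and 313 bp and 299 bp for the others (mean 306 ± 9.90, SD, n = 2), and the pairs did not overlap.

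The 10 desert peaks of highest fold that both replicates held lay beside genes of varied kinds. The first, chr16:86820728-86821290, stood in the long non-coding RNA gene Gm32624 between Adamts5, an aggrecan-cleaving protease, and N6amt1, a methyltransferase, 533 kb from the latter. It reached 77-fold in replicate 1 and 66.1-fold in replicate 2 (mean 71.5 ± 7.75, SD, n = 2). The second, chr8:126735182-126737263, lay 142 kb from Irf2bp2, a transcriptional cofactor, at 72-fold and 70.5-fold (mean 71.2 ± 1.08, SD, n = 2). These 2 did not differ beyond the spread of the first. A peak 209 kb from Cxcl12, the chemokine that guides cells carrying CXCR4, had 66-fold and 65.2-fold (mean 65.6 ± 0.597, SD, n = 2). One between Flrt2, a membrane adhesion protein, and Galc lay 1141 kb from any gene, at 66-fold and 60.3-fold (mean 63.1 ± 4.04, SD, n = 2). Another in Mir100hg, 300 kb from Ubash3b, had 60.5-fold and 66.1-fold (mean 63.3 ± 3.92, SD, n = 2). Replicate 1 was the higher at 9 of the 10, and this last was the exception. The other 5 lay between Gria4 and Casp1, Gask1b and Gria2, Auts2 and Castor2, Zfat and Khdrbs3, and Tmx1 and Frmd6, with means of 58.2 to 62.3. The Tmx1 to Frmd6 peak covered the Gm24474 window printed above, at 60.5-fold and 55.9-fold (mean 58.2 ± 3.29, SD, n = 2). The widest peak that both lists held, 2578 bp between Tcp10c and Tcte2, had 28.5-fold and 23.9-fold, and the next, 2420 bp over the start of 4732465J04Rik between Nudt4 and Eea1, had 41-fold and 35.9-fold.

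The 5 farthest peaks lay in 4 of the longest gene-free intervals, several of them beside genes of neuronal adhesion. They stood 2153 and 2120 kb from a gene between Celf4, a neuronal RNA-binding protein, and Pik3c3, 2138 kb between Cntnap5b and Cdh20, 2130 kb between Olfm4 and Pcdh17, and 2103 kb between Pcdh20 and Pcdh9. All were in both lists, with means of 8.68 to 19.3-fold. The peak beside Cntnap5b was 196 bp wide, at 13.5-fold and 20.4-fold (mean 16.9 ± 4.87, SD, n = 2), and that beside Pcdh9 193 bp, at 20-fold and 18.6-fold (mean 19.3 ± 0.979, SD, n = 2). The 4542 kb interval between Pcdh20 and Pcdh9, the longest, held 9 peaks with a median width of 195 bp. By contrast, the interval between Zeb2, a repressor of epithelial genes, and Acvr2a held 23 peaks with a median width of 471 bp, of which 4 reached 30-fold.

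Desert peaks were unevenly spread over gene-free intervals. Of 1393 intervals long enough to hold one, 852 did and 541 did not. The empty ones were shorter, with a median of 284 kb against 608 kb, and 441 of them were under 500 kb. The 105 intervals with 10 or more held 41.5% of the desert peaks in 18.2% of the desert sequence. Density fell with the length of the interval, from 11.6 per Mb in intervals of 200 to 500 kb to 2.65 per Mb in those over 2 Mb. The most, 48, lay between Agtr1b, an angiotensin receptor, and Tbl1xr1, a corepressor subunit, with 37 of them in the Tbl1xr1 side of the interval. The strongest there had 51.5-fold and 58.5-fold. The interval between Nmbr and Cited2, a CBP/p300 cofactor needed for heart formation, held 41, with 33 on the Cited2 side and 15 within 500 kb of it. Those between Adamts5 and N6amt1 and between Cd83 and Jarid2, a Polycomb cofactor of the developing heart, held 31 each, and Slc4a3 to Epha4, an ephrin receptor, held 30, as did Myc to Gsdmc and Gm5148 to Ankrd50. Those from Adamts5, Cd83 and Slc4a3 were spread over both sides, with 17 and 14, 18 and 13, and 16 and 14. All 181 peaks of the 5 intervals plotted were in both lists.

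**Figure D3:**
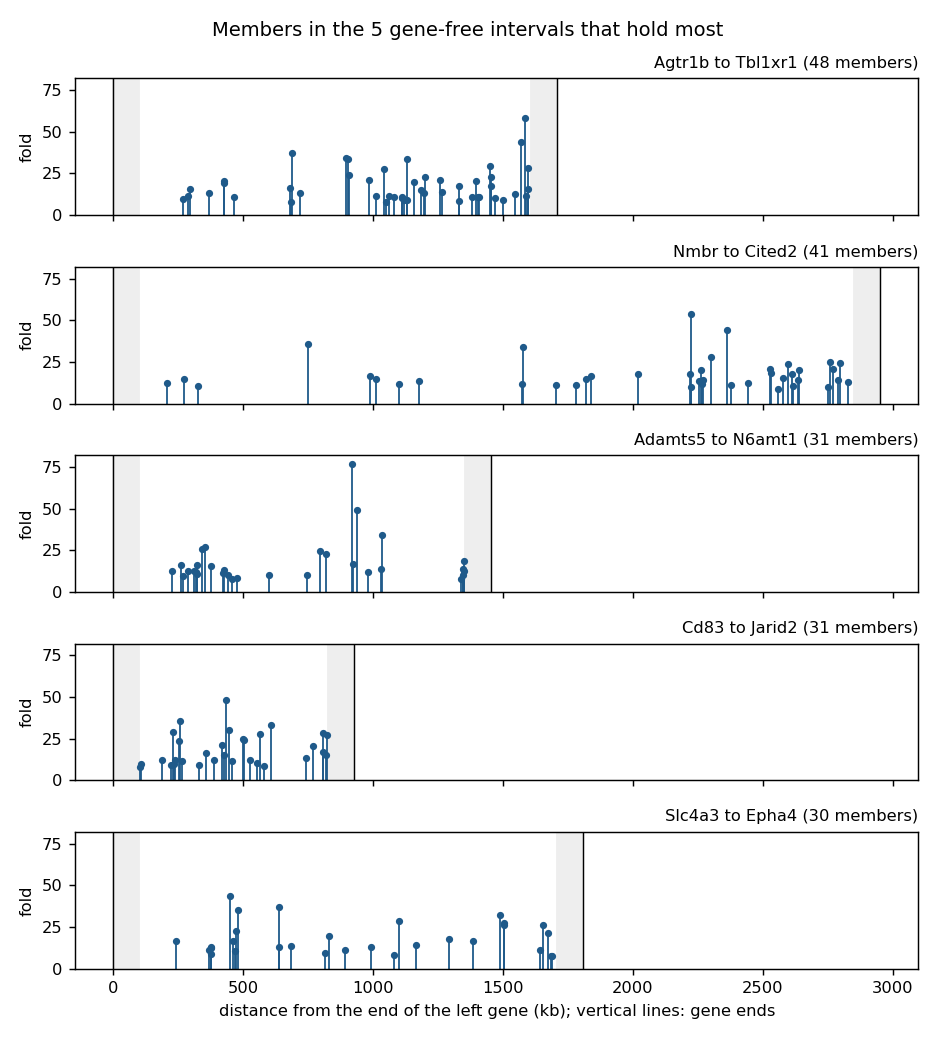
Each desert peak of 5 gene-free intervals that hold most (the fifth tied with 2 others at 30), as series-wide fold against distance in kb from the end of the left gene. Vertical lines mark the gene ends and grey the 100 kb beside them that the rule leaves out; the peaks lean to the Tbl1xr1 and Cited2 sides in the top 2 panels and spread over both sides in the others.

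Within intervals, 1401 desert peaks (35.6%) had another within 10 kb, in 572 clusters of which 61 held 4 or more. Clustered peaks were somewhat wider than lone ones, with medians of 445 and 346 bp, and their median fold was 15.5 against 14. Among peaks under 100 kb from a gene 58.3% had a neighbour within 10 kb. The shares were not matched for density, which was 21 per Mb there and 5.75 per Mb in deserts. The largest cluster held 8 peaks over 44.7 kb, 105.5 kb from Vegfa, the angiogenic growth factor, and 133.4 kb from 1600014C23Rik. From its left end their folds in replicate 1 were 9, 10, 27, 14.5, 24.5, 11.5, 16 and 16.5, and in replicate 2 they were 8.87, 11.1, 32.8, 8.42, 23.9, 10.2, 13.3 and 13.3. The pair above 20-fold, at chr17:45873410-45874131 and chr17:45886216-45886872, was the same in both samples. Clusters of 7 included one between Pik3r1, a regulatory subunit of PI3-kinase, and Cd180, and one between Klf14 and Mkln1. The Pik3r1 cluster spanned 15.5 kb, with 8.5 to 45-fold in replicate 1 (median 21.5) and 11.1 to 43.4-fold in replicate 2 (median 17.7). The Klf14 cluster ran from 9 to 24-fold in replicate 1 and from 8.42 to 19.5-fold in replicate 2. The 4 clusters of 6 had Zfp608, Usp24, Gm5148 and Olfr161 as nearest genes, with medians of 29, 15.6, 10.9 and 10.4-fold. All peaks of the clusters named here were in both lists. Peaks of one cluster share their neighbourhood and are not independent sites.

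Of 20665 protein-coding genes, 1538 were the nearest gene on one side of a desert peak (7.44%). Among 30 genes of the stress response, which holds the known targets of ATF4, 8 flanked a desert peak (26.7%), and 8 of 30 also stood at an interval long enough to hold one, so every stress gene with a desert had a peak in it. Among all genes 2374 stood at such an interval (11.5%), against the 1538 that flanked a desert peak. All 3 heart muscle genes at such an interval flanked one too, so this was not particular to stress genes. The deserts beside the 8 held 67 peaks at 14.7 per Mb, beside 5.75 per Mb over all desert sequence, with a median fold of 16.5 beside 14.5. Their 11 intervals were short, with a median of 358 kb, and all intervals of the same length classes together held 6.63 per Mb. A flanking gene need not be the nearest: for 32 of the 67 peaks a listed gene was the nearer of the pair. Trib2, a pseudokinase of the Tribbles family, flanked 27, from 142 to 1476 kb away, and was the nearer gene for 15. The strongest, chr12:16184649-16186113, lay 368 kb from Trib2 and 350 kb from Lpin1, and had 49-fold and 54.1-fold (mean 51.5 ± 3.59, SD, n = 2), and a second at 197 kb on its other side had 50-fold and 46.1-fold. Another, 404 kb away and 314.5 kb from Lpin1, over the Gm36372 window printed above, had 36-fold and 34.6-fold (mean 35.3 ± 1.01, SD, n = 2). Slc7a11, the cystine transporter and a known ATF4 target, flanked 10 desert peaks at 179 to 623 kb and was the nearer gene for 3. Their folds were 12, 8, 24.5, 28.5, 22.5, 7, 11, 18.5, 10 and 12 in replicate 1 and 21.3, 7.98, 26.6, 27.9, 22.6, 8.87, 19.1, 18.2, 8.42 and 8.87 in replicate 2, in genome order. A run of 3, 361 to 436 kb away, was above 20-fold in both samples, and no other was. These 3 lay nearer to Pcdh18, a protocadherin gene, at 172 to 247 kb. Vldlr, a lipoprotein receptor, and Stc2, a secreted glycoprotein, had 7 each, of which Vldlr was the nearer gene for 4 and Stc2 for 1. The strongest had 36.5-fold and 40.8-fold beside Vldlr (mean 38.6 ± 3.03, SD, n = 2) and 37-fold and 32.4-fold beside Stc2 (mean 34.7 ± 3.28, SD, n = 2), the latter slightly nearer to Bod1. Cebpb, which encodes a dimer partner of ATF4, and Trib1 had 2 each. Psat1, an enzyme of serine synthesis, had 1, at 10.5-fold and 7.53-fold. Vegfa, with 11 in 82.9 kb of desert, was the nearer gene for 5, with 1600014C23Rik on the other side. Its interval had the highest density of any with 10 or more, 133 per Mb. Moxd1 to Ccn2, the latter a matricellular growth factor gene, followed with 119 per Mb, and Klf14 to Mkln1 with 104 per Mb.

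**Figure D4:**
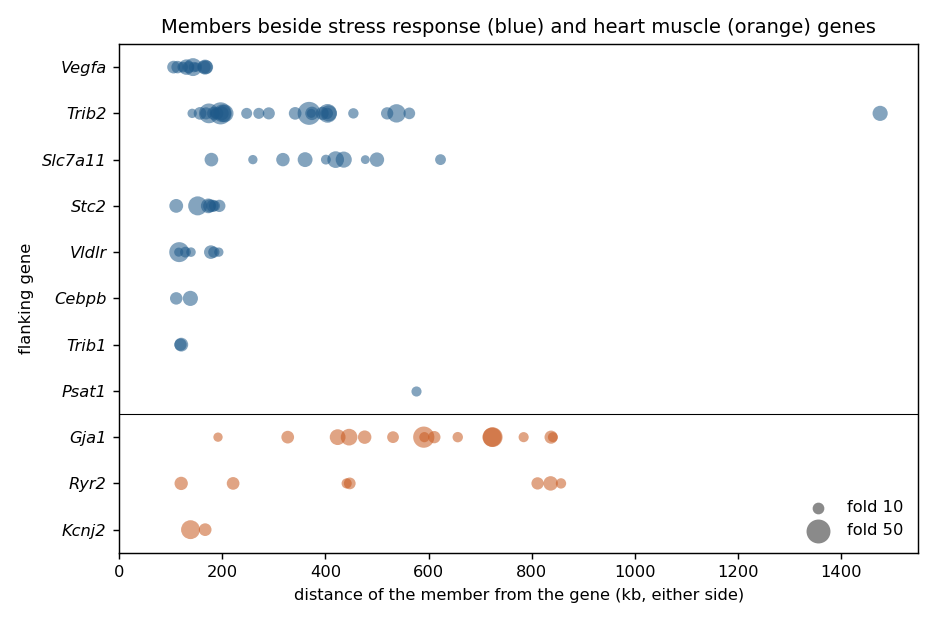
Desert peaks beside the 8 stress response genes (blue) and 3 heart muscle genes (orange) that flank any, by distance from the gene in kb, with the area of a point proportional to series-wide fold. Trib2 has 27 points and Gja1 15, the 11 of Vegfa lie between 105.5 and 169 kb, and the 10 of Slc7a11 between 179 and 623 kb.

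Heart transcription factors stood at deserts more often than most genes: 18 of 27 lay at an interval of 200 kb or more and 16 flanked a desert peak, with 101 peaks at 8.45 per Mb, beside 6.71 per Mb over all intervals of the same length classes. A listed gene was the nearer one for 50 of the 101. Mef2c, which drives muscle gene programs, had 17, the strongest with 25-fold and 27-fold. It lay 1186.5 kb from Mef2c, in an interval of 1706.9 kb that starts at Cetn3. Meis1, a regulator of cardiomyocyte cell cycle exit, had 14, the strongest with 38.5-fold and 47-fold (mean 42.7 ± 5.999, SD, n = 2), 525 kb away. Hand2, needed for the right ventricle, had 11, with 41-fold and 42.1-fold at the strongest, 210 kb away. Tbx3, a factor of the conduction system, had 11, with 25-fold and 19.9-fold at the strongest, 543 kb away with Med13l on its other side. Tbx20, a factor of cardiomyocyte identity, had 10 in 134 kb of desert, 74.7 per Mb. The strongest lay over the E130101E03Rik window printed above, with 40-fold and 34.1-fold (mean 37.1 ± 4.15, SD, n = 2). That peak was nearer to Herpud2, at 133.6 kb, than to Tbx20, at 200.2 kb. Of 25 heart muscle genes only 3 flanked a desert peak, as only 3 stood at such an interval. They were Gja1, the gap junction protein connexin 43, with 15, of which it was the nearer gene for 6, and up to 46-fold and 38.1-fold (mean 42.1 ± 5.57, SD, n = 2) at a peak nearer to Hsf2, the calcium release channel gene Ryr2 with 7, and the potassium channel gene Kcnj2 with 2.

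Other developmental genes and adhesion genes had desert peaks as well. Of 52 other developmental transcription factors 36 flanked one, with 241 peaks at 5.89 per Mb, a density near that of all deserts. Myc, the growth regulator, had 42, the strongest with 31.5-fold and 38.6-fold, and Nfib, a nuclear factor I gene, 31, the strongest with 44.5-fold and 45.2-fold. Zeb2 had 23, Pou3f3 17, Sox4 15 and Irx1 12. Of 50 adhesion and axon guidance genes 40 flanked one, with 304 peaks, but 45 of the 50 stood at an interval, and the density there was 2.90 per Mb. Pcdh7, a protocadherin, had 24 in 6871 kb of desert and the ephrin receptor gene Epha7 21 in 5062 kb. Cdh9 had 21, Cdh11 and Pcdh17 18 each, and Cdh6 and Flrt2 17 each. Heart and developmental transcription factors together flanked 8.62% of the desert peaks, beside 7.72% of the desert sequence, and 4.70% when the nearest gene alone was counted. Over all intervals of the same length classes the density was 5.34 per Mb for the developmental list and 3.68 per Mb for the adhesion list, so the adhesion density was below that of its lengths.

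Deserts without protein-coding genes are not free of transcripts. Of the 3933 peaks 797 (20.3%) lay inside long non-coding RNA genes, which covered 10.4% of the desert sequence, at 11.2 per Mb inside them and 5.11 outside. These densities were not matched for distance from a protein-coding gene or for interval length, and density fell with both. The median fold of the 797 was 14. The long non-coding RNA genes with a desert peak numbered 473, and 21 held 5 peaks or more. A930011G23Rik and Lncpint, a p53-induced transcript, held 14 each, Mir99ahg 13, Mir100hg 12, and Gm15270 and Morrbid 11 each. Morrbid, a regulator of Bcl2l11 in short-lived myeloid cells, had its strongest peak at 15.5-fold and 26.2-fold.

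Mir99ahg and Mir100hg are host genes of paralogous miRNA groups, and of 100 desert miRNA hairpins held by RefSeq, 9 lay within 10 kb of a desert peak (9%), 5 of them in these groups. Of the desert sequence 9.26% lay as near, so the hairpins were at the background. Their mature miRNAs are shown because both loci encode the same seed, bases 2 to 8, in capitals. The miR-99/100 pair shares ACCCGUA:
mmu-miR-100-5p, plus strand, chr9:41531437-41531458: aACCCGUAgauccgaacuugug
mmu-miR-99a-5p, plus strand, chr16:77598940-77598961: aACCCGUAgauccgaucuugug
Also shown from these groups are miR-125b, with seed CCCUGAG, and let-7c, with seed GAGGUAG:
mmu-miR-125b-5p, plus strand, chr9:41581940-41581961: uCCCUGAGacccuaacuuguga
mmu-let-7c-5p, plus strand, chr16:77599672-77599693: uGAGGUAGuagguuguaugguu

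In Mir100hg (chr9:41376526-41615185) the 12 peaks ran from 7.5 to 60.5-fold in replicate 1 and from 7.54 to 66.1-fold in replicate 2, with medians of 10.5 and 13.1. The highest lay 85.5 kb from the start of the model, and the second, 169 kb from it and between Mirlet7a-2 and Mir125b-1, had 37.5-fold and 34.1-fold (mean 35.8 ± 2.38, SD, n = 2). The peaks nearest the hairpins were low. One 577 bp from Mir100, the only hairpin with a desert peak within 1 kb, had 9.5-fold and 9.31-fold (mean 9.40 ± 0.136, SD, n = 2), and one 1818 bp from Mir125b-1 had 10-fold and 9.31-fold. In Mir99ahg (chr16:77329328-77558428) the peaks at the model's start had 24.5-fold and 20.4-fold, and 34.5-fold and 34.6-fold. A second group of 3, at 165 to 174 kb, had 28.5, 36 and 27.5-fold in replicate 1 and 31.5, 39.9 and 35.9-fold in replicate 2. A peak 4091 bp from Mir99a, past the end of the model, had 33.5-fold and 30.1-fold (mean 31.8 ± 2.38, SD, n = 2). In both genes the peaks above 20-fold in replicate 1 were those above 20-fold in replicate 2.

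**Figure D5:**
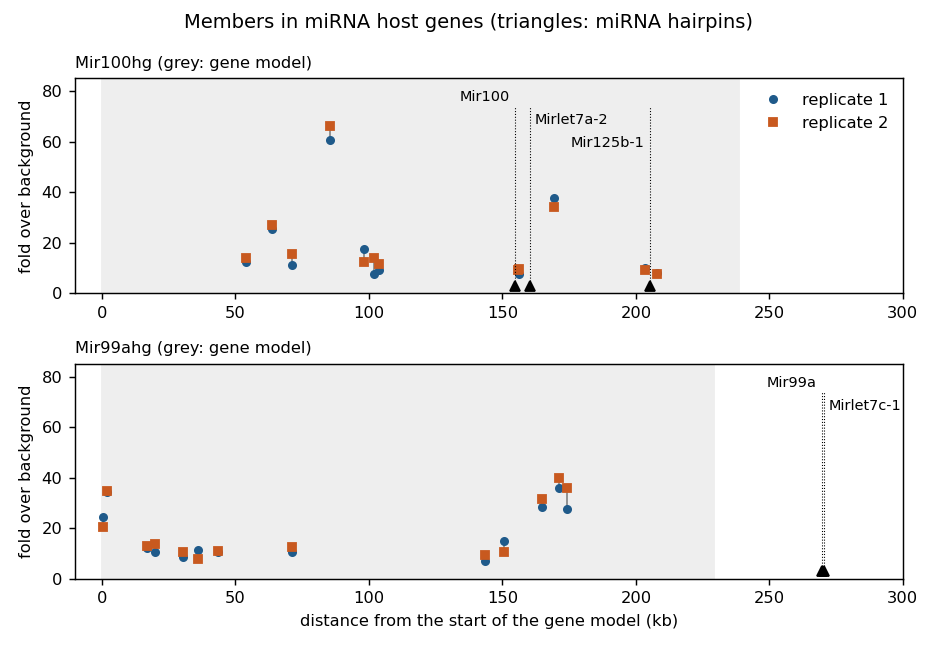
Fold over background of each desert peak in Mir100hg and Mir99ahg, for replicate 1 (circles) and replicate 2 (squares), by distance in kb from the start of the gene model, with miRNA hairpins as triangles. In Mir100hg the peak at 85.5 kb reaches 60.5 and 66.1-fold, and those beside Mir100 stay under 10-fold.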

How the data were processed

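Peaks of ATF4 pull-downs from mouse heart ventricle (n = 2) were used as deposited: 1 series-wide list and 1 list per replicate. Replicate support of the series-wide (IDR) list is largely set by how it was made. Values in the series-wide list are the authors' fold over background, a ratio. The replicate lists hold the authors' −log10 p- or q-value, and which of the pair was not settled. Replicate folds were read from the relation between −log10 value and fold at peaks of the same coordinates (17420 in replicate 1 and 21063 in replicate 2). Bowtie2, MACS2, deepTools and mm10 are named, with no role, per the submitters' processing notes, and settings are not given in the sources used here. Gene models were those of RefSeq GRCm38.p6, with 20665 protein-coding models on chromosomes 1 to 19. Density used the bases between the first and last model of each chromosome, assembly gaps included, and 27 desert peaks outside that span were left out of it. Overlap needed 1 bp, and peaks within 10 kb were joined into clusters. No count of reads or test across peaks was available, so results are descriptions. The share of peaks in both lists has an exact Clopper-Pearson 95% interval. The members and lists (5 lists, 184 genes) were chosen with earlier results of these data known. Named by rule were the 10 highest peaks in both lists, the 5 farthest and widest, 5 intervals with most peaks (the fifth, tied with 2 others at 30, taken as the longest), the largest clusters, and up to 6 genes per list by number of peaks; narrow peaks and printed windows were chosen after values were seen. Some named items are not reported here. The planned motif search at summits was not run, since no genome was used here, and RefSeq promoter windows were searched instead. No value column was left unmapped. Code was tested on simulated data with SciPy 1.17.1 and pandas 2.3.3 on Python 3.11.15, and NumPy 2.4.6, and figures were drawn with Matplotlib 3.10.9.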

Additional observations from a re-analysis of the deposited data

How the results depend on the processing

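Desert density stayed below that of other sequence under each alternative run. Over all results the alternatives gave 70 values, of which 44 were classed as moved from the main setting. Results with no spread between the replicates, such as the number of desert peaks and the share in both lists, are among the 44. Taking peaks at least 50 kb from a gene gave 6017 peaks, a density ratio of 0.313, a median width of 396 bp, 6.96% beside a transcription factor gene and 134 in neither list. At least 200 kb gave 2154 peaks, 0.226, 358 bp, 98.4% in both lists, 30.3% clustered, 10.1% beside a transcription factor gene and 35 in neither list. Distance to every gene model, non-coding included, left 644 peaks, with a ratio of 0.174, 15.1-fold, 329.5 bp, 22.5% clustered and 0.311% beside a transcription factor gene. The 50% of peaks with the highest fold held 2175 desert peaks, with 0.298, 19.5-fold, 456 bp, 27.8% and 8.28%. Using 1 replicate list alone gave 7997 to 8726 desert peaks, ratios of 0.286 to 0.297, medians of 7.98 to 8.50-fold and 249 to 260 bp, 47.5% to 54.2% clustered and 8.54% to 8.81% beside a transcription factor gene; the share in both lists was 97.84% with either left out, since it is defined on both. A reciprocal overlap of 50% gave 92.25% in both lists. Joining peaks at 5 kb and 50 kb put 23.5% and 66.6% in clusters, and the nearest gene alone gave 4.70% beside a transcription factor gene. Chosen after seeing the data, peaks before the last replicate peak of their chromosome were in both lists at 99.6%, and peaks of 200 bp or more gave 0.248, 15.0-fold, 422 bp and 8.84%. No paired analysis was possible because the study has 1 group of pull-downs, so no difference between groups was tested. Read depth limits weak peaks to an unknown degree, and folds are relative to a constant background, not to input.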
